A study of Mus musculus with 12 samples.

Results

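The 10 genes described here are the enzymes and regulators of hepatic de novo lipogenesis Fasn, Acaca, Acacb, Acly, Acss2, Me1, Srebf1, Mlxipl, Thrsp and Pnpla3. They were found as the array probes whose accession maps to one of these symbols, which gave 14 probes, and they are 10 of 25270 genes or unnamed features kept on the arrays. Fasn and Acss2 were read by 2 probes each, Acaca by 3 and the other 7 genes by 1, and every one of the 14 probes was well above background on all 12 arrays. Whole livers of C57BL/6 mice were profiled after 2 days of control food or of food holding 0.1% Wy-14643, an agonist of the nuclear receptor PPARA. All mice carried floxed Myc alleles (MycF/F), and those labelled MycF/F,ERT2-Cre also carried a Cre recombinase fused to a mutated estrogen receptor domain, which needs a ligand such as tamoxifen to act. MycF/F mice gave 1 array on control diet, from RNA labelled as pooled, and 3 arrays on Wy-14643. MycF/F,ERT2-Cre mice, called ERT2-Cre below, gave 4 arrays on each diet. The labels say nothing of tamoxifen, sex, age or the promoter that drives the transgene. The labels do not state that replicates are separate animals, so the spread behind the p-values may be technical.

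De novo lipogenesis turns carbohydrate carbon into fatty acids in the fed liver. Citrate leaving the mitochondrion is cleaved by ATP citrate lyase (Acly) to acetyl-CoA, acetyl-CoA carboxylases make malonyl-CoA from it, and fatty acid synthase (Fasn) builds palmitate from malonyl-CoA with NADPH that malic enzyme (Me1) helps to supply. Insulin acts on these genes largely through SREBP-1c, a product of Srebf1, and glucose through ChREBP, the product of Mlxipl. PPARA drives the opposing programme of fatty acid oxidation, and malic enzyme is among the genes known to respond to its agonists.

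Each value is a log2 ratio of the sample (Cy5) to a pooled liver reference (Cy3) on the same array, so 0 is the level of the reference and levels of different genes are not compared. Arrays lay on 3 slides of 4 arrays, each scanned on its own. Slide 1 carried 2 ERT2-Cre control arrays and 1 treated array of each genotype, and its arrays stood apart in having 5.47% to 8.35% of spots marked as outliers by the scanner software, against 0.904% to 1.84% on slides 2 and 3. Deviations from the group means were correlated between arrays of different groups, without the lone MycF/F control array. The median r was 0.262 for arrays of the same slide and -0.139 for arrays of different slides. As deviations in a group sum to 0, positive values on a slide tend to force negative ones between slides. The outlier spots were left out. Among the probes that stand for the 10 genes, outlier spots touched Me1 on 5 arrays, Thrsp on 4, Fasn, Acly and Acss2 on 2 each and Mlxipl on 1, all marked for uneven spots, and values of these genes with such spots kept are given beside the main ones. Median Cy5 signal over local background ran from 2.64 to 4.82 per array, and the number of arrays limits the precision. Hepatocyte transcripts were bright, with Alb at a median of 4553 times background, while the adipocyte gene Adipoq was at 2.87 times background. Of 3 Myc probes, 2 read lower in ERT2-Cre than in MycF/F livers on Wy-14643 (log2 difference -1.83, SE 0.19, limma adjusted p = 0.00614, and -1.85, SE 0.17, adjusted p = 0.00385). The brightest differed by -0.57 (SE 0.17, adjusted p = 0.295). Where these probes lie relative to the loxP sites is unknown here, and one lying outside the deleted stretch is no check of it.

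The RefSeq promoter table (GRCm38.p6, 250 bases before to 50 after each annotated start) held all 10 genes in 14 windows. Windows of genes called below in ERT2-Cre livers are shown, and those of Mlxipl, also called lower, are left out. The windows shown are from 3 genes that were lower on Wy-14643 (Thrsp, Acly, Srebf1) and 2 that were higher (Acacb, Me1). For Srebf1 and Me1 they are 1 of several windows. Each is written 5′ to 3′ on the gene's strand, and capitals mark the CCAAT box (CCAAT, or ATTGG on the other strand), where NF-Y can bind, and the single nuclear receptor site AGGTCA (or TGACCT on the other strand).
Thrsp chr7:97417501-97417800 (minus strand): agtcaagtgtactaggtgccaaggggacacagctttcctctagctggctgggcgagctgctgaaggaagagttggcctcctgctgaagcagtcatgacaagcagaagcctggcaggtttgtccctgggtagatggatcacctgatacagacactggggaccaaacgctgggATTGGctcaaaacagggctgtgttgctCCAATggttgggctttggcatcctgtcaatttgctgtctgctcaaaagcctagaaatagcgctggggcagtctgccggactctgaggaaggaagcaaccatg
Acly chr11:100527951-100528250 (minus strand): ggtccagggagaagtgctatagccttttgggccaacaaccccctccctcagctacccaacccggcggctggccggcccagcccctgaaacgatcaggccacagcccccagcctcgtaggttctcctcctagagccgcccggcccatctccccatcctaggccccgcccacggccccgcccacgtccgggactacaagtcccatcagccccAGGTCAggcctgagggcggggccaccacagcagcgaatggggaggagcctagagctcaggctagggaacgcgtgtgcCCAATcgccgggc
Srebf1 chr11:60210422-60210721 (minus strand): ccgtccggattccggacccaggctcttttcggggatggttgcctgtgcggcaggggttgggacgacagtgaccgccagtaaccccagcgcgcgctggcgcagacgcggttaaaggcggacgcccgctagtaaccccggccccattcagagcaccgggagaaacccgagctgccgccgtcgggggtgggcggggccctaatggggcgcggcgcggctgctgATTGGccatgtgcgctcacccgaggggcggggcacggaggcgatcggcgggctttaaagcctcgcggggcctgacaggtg
Acacb chr5:114165268-114165567 (plus strand): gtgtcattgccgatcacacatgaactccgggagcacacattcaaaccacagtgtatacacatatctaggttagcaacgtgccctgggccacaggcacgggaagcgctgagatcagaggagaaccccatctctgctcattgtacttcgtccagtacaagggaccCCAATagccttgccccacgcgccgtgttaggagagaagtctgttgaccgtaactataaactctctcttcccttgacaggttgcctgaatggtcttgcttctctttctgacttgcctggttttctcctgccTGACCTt
Me1 chr9:86695865-86696164 (minus strand): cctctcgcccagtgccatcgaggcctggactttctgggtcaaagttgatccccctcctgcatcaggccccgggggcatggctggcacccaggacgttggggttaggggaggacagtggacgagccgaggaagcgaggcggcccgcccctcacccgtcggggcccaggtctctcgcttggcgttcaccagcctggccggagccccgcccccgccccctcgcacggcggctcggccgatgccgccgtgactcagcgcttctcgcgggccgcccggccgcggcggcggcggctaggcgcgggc

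On both strands, CCAAT was present in 10 of the 14 windows and in 37.4% of all 32851 windows in the table. Among windows not shown, the other Me1 window held it (at -208 from the start). Of the other Srebf1 windows, chr11:60222532-60222831 held it (at -166) and chr11:60220578-60220877 did not. Capitals in the windows shown therefore do not compare genes that rose with genes that fell. The GC box GGGCGG, a site for Sp1-type factors that is left in lower case above, was in 7 of 14 against 35.7% of all windows. The single site AGGTCA was found in 2 windows, those of Acly and Acacb, against 16.3% of all. The E-box CACGTG, the core letters read by ChREBP and USF factors, was in 1 window, of Mlxipl itself (7.15% of all). The SREBP core TCACNCCAC was in 1 window, also of Mlxipl (1.24% of all). The direct repeat of PPARA with RXR, AGGTCANAGGTCA, had 0 exact matches in the 14 windows (0.0396% of all) and 0 with up to 2 mismatches (3.86% of all). For the LXR repeat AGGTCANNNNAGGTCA the counts were 0 and 0 as well (0.0152% and 3.02% of all). The classical sterol response element was in 0 windows (0.0913% of all). These counts describe letters in 300 bases and say nothing of binding.

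In ERT2-Cre livers Wy-14643 moved the 10 genes in both directions. Acacb and Me1 rose, Acly, Srebf1, Mlxipl and Thrsp fell, and Fasn, Acaca, Acss2 and Pnpla3 were not called. Thus 2 of 10 were called higher, where 8.95% of all 25131 genes tested were, and 4 of 10 lower, where 7.44% of all were (limma, Benjamini-Hochberg adjusted p under 0.05). The median log2 fold change of the 10 was -0.49, against 0.03 over all genes. With median centring in place of loess the calls were 1 higher (Me1) and 1 lower (Acly), and with Cy5 alone 1 higher (Me1) and 2 lower (Acly and Mlxipl). Calls over all genes fell as well under these settings, from 4118 to 833 (581 higher, 252 lower) and 1303.

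**Figure D1:**
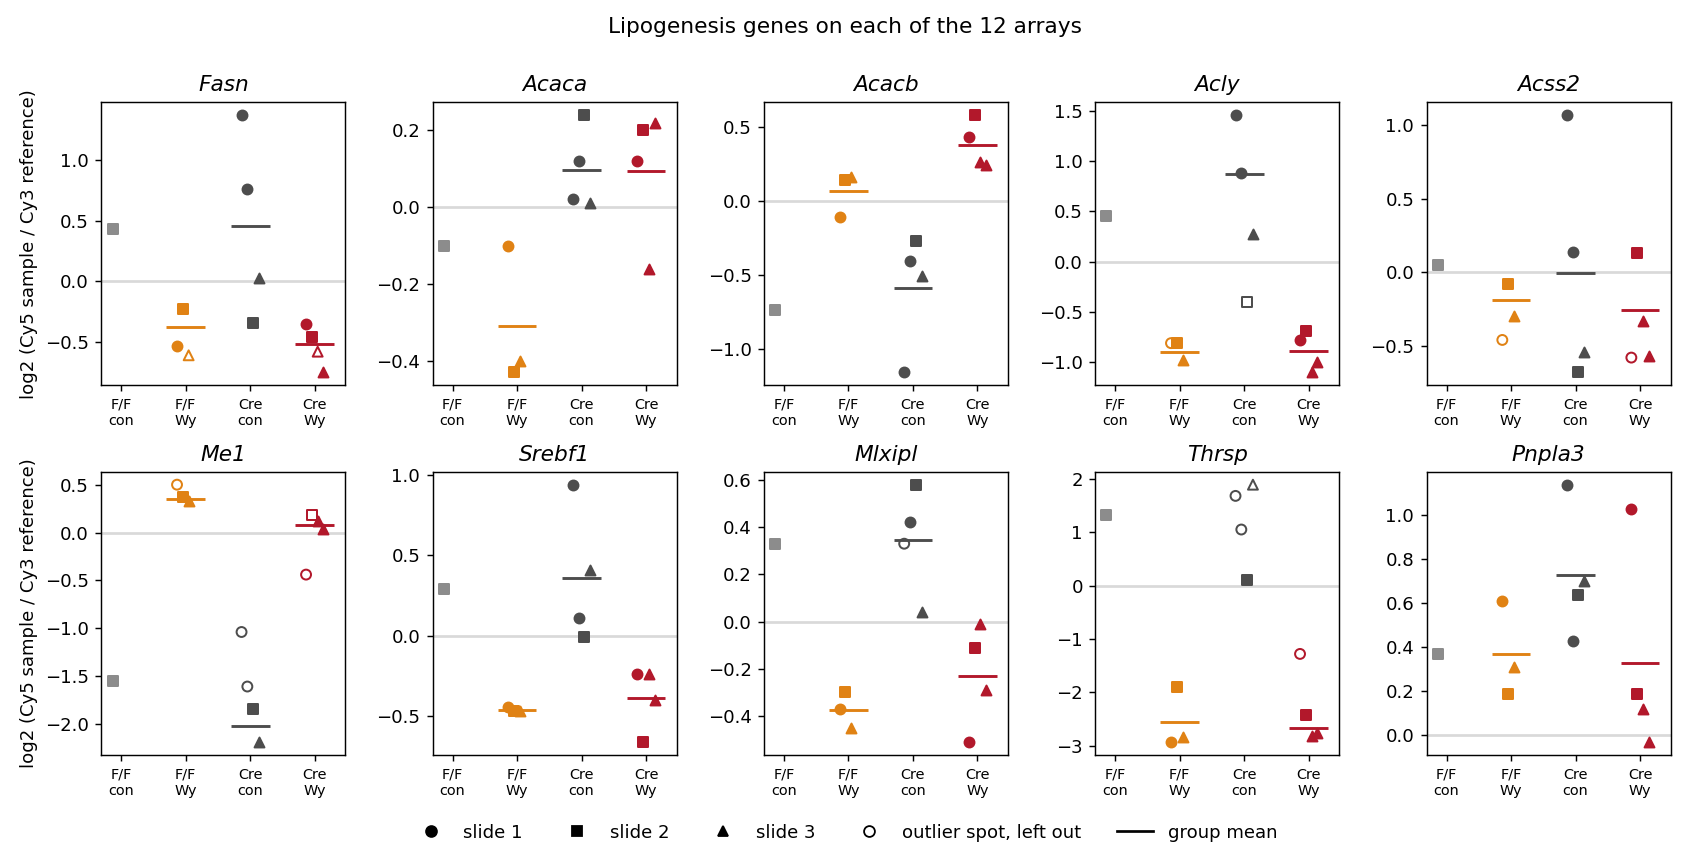
Log2 ratio of sample to reference for each of the 10 genes on each of the 12 arrays, by group (F/F, MycF/F; Cre, MycF/F,ERT2-Cre; con, control diet; Wy, Wy-14643), with slides as marker shapes, outlier spots open and group means as lines. Thrsp falls from 0.10 to 1.89 on ERT2-Cre control arrays to -2.82 to -1.28 on Wy-14643, while Me1 goes the other way.

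Acly makes cytosolic acetyl-CoA from citrate. Its log2 ratios were 1.46, 0.88 and 0.28 on 3 ERT2-Cre control arrays, with an outlier spot at -0.40 on the fourth, and -0.78, -0.69, -1.10 and -1.0 on Wy-14643. All Wy-14643 arrays lay below all control arrays, the outlier spot included. Acly fell by 1.77 on the log2 scale (SE 0.23, 3.40-fold lower, limma adjusted p = 0.000455, n = 4 and 3), and with the outlier spot kept the difference was -1.45 (SE 0.30, adjusted p = 0.00559). Within slides 1 and 3 it was -1.95 and -1.33, and within slide 2, whose control array carried the outlier spot, -0.29.

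Acss2 makes acetyl-CoA from acetate. Its brighter probe read 1.07, 0.14, -0.68 and -0.54 on ERT2-Cre control arrays and 0.13, -0.33 and -0.57 on Wy-14643, with an outlier spot at -0.58. The control arrays spread over the whole range of the treated ones, and the 2 control arrays of slide 1 were the high ones. The difference was -0.26 (SE 0.36, 95% interval -1.06 to 0.55, limma adjusted p = 0.71). With slide as a block its sign turned, to 0.40 (adjusted p = 0.332), and it was 0.10 without ERT2-Cre control replicate 1. The second probe gave 0.56 (SE 0.19, adjusted p = 0.0806) over 4 and 2 arrays, its outlier spots being the 2 control arrays of slide 1. With outlier spots kept the probes gave -0.34 (SE 0.32) and -0.29 (SE 0.43), so the sign of the second turned. No direction can be given for Acss2.

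The carboxylases Acaca and Acacb make malonyl-CoA, Acaca in the cytosol for synthesis and Acacb at the mitochondrial surface, where malonyl-CoA restrains entry of fatty acids into oxidation. Acaca read 0.02, 0.12, 0.24 and 0.01 on ERT2-Cre control arrays and 0.12, 0.20, -0.16 and 0.22 on Wy-14643. These ranges overlap, the difference was 0.00 (SE 0.11, 95% interval -0.23 to 0.23, limma adjusted p = 0.998), and the other probes gave 0.07 and 0.04. Acacb read -1.16, -0.41, -0.27 and -0.51 on control diet and 0.43, 0.58, 0.26 and 0.24 on Wy-14643. Every treated array was above every control array, and Acacb rose by 0.97 (SE 0.17, 1.95-fold, limma adjusted p = 0.00162, n = 4 and 4). The rise was 1.22, 0.85 and 0.76 within slides 1, 2 and 3. The call is lost with median centring (0.97, adjusted p = 0.0828) and with Cy5 alone (0.73, adjusted p = 0.177).

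Fasn, which assembles palmitate, read 1.37, 0.76, -0.34 and 0.03 on ERT2-Cre control arrays and -0.35, -0.46 and -0.75 on Wy-14643, with an outlier spot at -0.58. The treated arrays lay below the control arrays, but control replicate 3 (-0.34) nearly met the highest of them (-0.35), and the control arrays had an SD of 0.76 against 0.21 on Wy-14643. The difference was -0.97 (SE 0.34, 95% interval -1.72 to -0.23) and missed the threshold (limma adjusted p = 0.08, n = 3 and 4). The second Fasn probe, with no outlier spot, read 1.17, 0.77, -0.23 and -0.02 against -0.41, -0.41, -0.72 and -0.62, a difference of -0.96 (SE 0.25). Tested with every probe as its own row, it passed as lower (adjusted p = 0.0208), as 7.21% of all probes did. The first probe passed with the outlier spot kept (-0.99, adjusted p = 0.0366) and without control replicate 3 (-1.24, adjusted p = 0.0177). Within slides 1, 2 and 3 the difference was -1.41, -0.12 and -0.78, and with slide as a block it was -0.87 and not called (limma adjusted p = 0.0605). With replicate number as a block Fasn passed as lower, as given in the closing section.

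Me1 makes NADPH while turning malate into pyruvate. It read -1.85 and -2.19 on 2 ERT2-Cre control arrays and 0.12 and 0.04 on 2 arrays on Wy-14643. Outlier spots on the others read -1.04 and -1.61 on control diet and -0.44 and 0.18 on Wy-14643, so the diets did not overlap with these included. Me1 rose by 2.10 (SE 0.14, 4.28-fold, limma adjusted p = 8.11e-05, n = 2 and 2), and by 1.65 (SE 0.21, adjusted p = 0.000189) with outlier spots kept. Within slides 1, 2 and 3, with outlier spots kept, the rise was 0.88, 2.03 and 2.27.

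The regulators Srebf1 and Mlxipl both fell. Srebf1 read 0.94, 0.11, -0.01 and 0.41 on ERT2-Cre control arrays and -0.24, -0.66, -0.24 and -0.40 on Wy-14643, with no overlap. It fell by 0.75 (SE 0.17, 1.68-fold lower, limma adjusted p = 0.0106, n = 4 and 4), and by much the same within each slide (-0.76, -0.65 and -0.73). The single probe was not placed on the gene, so the SREBP-1a and SREBP-1c transcripts were not told apart. Srebf1 is not called with median centring (-0.49, adjusted p = 0.347) or with Cy5 alone (-0.63, adjusted p = 0.115).

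Mlxipl read 0.42, 0.58 and 0.04 on ERT2-Cre control arrays, with an outlier spot at 0.33, and -0.51, -0.11, -0.01 and -0.29 on Wy-14643. The highest treated array and the lowest control array, both on slide 3, were -0.01 and 0.04. Mlxipl fell by 0.57 (SE 0.14, 1.49-fold lower, limma adjusted p = 0.0183, n = 4 and 3), with -0.93, -0.69 and -0.19 within slides 1, 2 and 3. With the outlier spot kept it was -0.57 (SE 0.13, adjusted p = 0.00943). The call is lost without control replicate 2 (-0.54, adjusted p = 0.058), control replicate 3 (-0.46, adjusted p = 0.0661), Wy-14643 replicate 4 (-0.55, adjusted p = 0.0516) or the arrays of slide 1 (-0.44, adjusted p = 0.0781), and with median centring (-0.51, adjusted p = 0.419).

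Thrsp (Spot 14), a small protein that follows lipogenic activity in liver and responds to thyroid hormone and carbohydrate, had the largest change of the 10. On Wy-14643 it read -2.42, -2.82 and -2.76, with an outlier spot at -1.28. On ERT2-Cre control arrays only replicate 3 had an unmarked spot, at 0.10, and the 3 outlier spots read 1.68, 1.05 and 1.89. No array of one diet overlapped the other. Thrsp fell by 2.76 (SE 0.37, 6.79-fold lower, limma adjusted p = 0.00132, n = 3 and 1), the lone control array being assumed to vary like the other groups. With outlier spots kept it was -3.50 (SE 0.42, adjusted p = 0.00012, n = 4 and 4). The call is lost with median centring (-2.0, adjusted p = 0.0701) and with Cy5 alone (-2.50, adjusted p = 0.0849).

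Pnpla3, a lipid droplet protein whose gene is a target of SREBP-1c and ChREBP, read 1.14, 0.43, 0.64 and 0.70 on ERT2-Cre control arrays and 1.03, 0.19, 0.12 and -0.03 on Wy-14643. Wy-14643 replicate 1, on slide 1, was within the control range and the other 3 were below it. The difference was -0.40 (SE 0.22, 95% interval -0.87 to 0.07, limma adjusted p = 0.258), and without that replicate Pnpla3 passed as lower (-0.63, adjusted p = 0.0178), as it did without slide 1 (-0.58, adjusted p = 0.00259). Within slides 1, 2 and 3 the difference was 0.25, -0.45 and -0.66, so slide 1 went the other way.

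**Figure D2:**
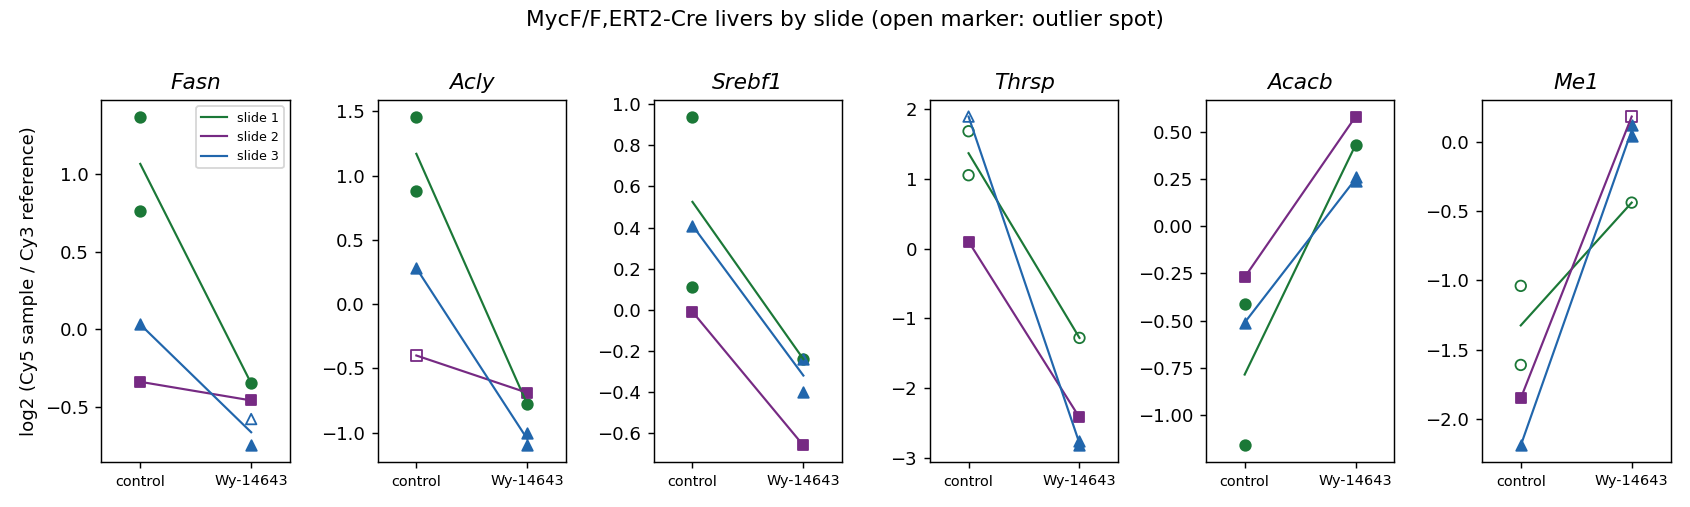
Log2 ratios of 6 genes in ERT2-Cre livers for both diets, with 1 line per slide joining the means of its arrays, outlier spots (open) included. Acacb rises and Srebf1 falls on each slide, while the difference of Fasn, which was not called, ranges from -0.12 on slide 2 to -1.41 on slide 1.

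The same question in MycF/F livers rests on 1 control array, whose spread is borrowed from the other groups. There 1 of the 10 genes was called higher, where 3.36% of 24902 genes tested were, and 1 lower, where 3.23% were, and the median of the 10 was -0.47 against 0.00 over all genes. Me1 read -1.55 on the control array and 0.37 and 0.33 on Wy-14643, a rise of 1.90 (SE 0.18, limma adjusted p = 0.000985). Thrsp read 1.32 on the control array and -2.93, -1.90 and -2.84 on Wy-14643, a fall of 3.87 on the log2 scale (SE 0.37, 14.7-fold lower, limma adjusted p = 0.000587). With outlier spots kept Me1 was at 1.95 (SE 0.34, adjusted p = 0.00459) and Thrsp at -3.87 (SE 0.69, adjusted p = 0.00492). Both calls are lost with Cy5 alone (adjusted p = 0.248 for Me1 and 0.0575 for Thrsp).

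The other 8 genes did not pass in MycF/F livers. Acly read 0.45 against -0.81 and -0.98 (-1.35, SE 0.37, limma adjusted p = 0.0589) and Acacb -0.74 against -0.11, 0.14 and 0.16 (0.80, SE 0.27, adjusted p = 0.118). Srebf1 read 0.29 against -0.44, -0.47 and -0.47 (-0.75, SE 0.28, adjusted p = 0.168), and Mlxipl 0.33 against -0.37, -0.30 and -0.45 (-0.70, SE 0.22, adjusted p = 0.0888). For Fasn the values were 0.43 against -0.53 and -0.23 (-0.81, SE 0.54, adjusted p = 0.546). Acaca (-0.21), Acss2 (-0.24) and Pnpla3 (0.00) had intervals that held 0. With outlier spots kept Acly was at -1.32 (SE 0.49, adjusted p = 0.171), Fasn at -0.88 (adjusted p = 0.411) and Acss2 at -0.33. With only the arrays of the 2 groups in the fit more of the 10 passed, but the lone control array is then assumed to vary like the Wy-14643 arrays. Their SD was 0.02 for Srebf1 and 0.07 for Mlxipl, against 0.42 and 0.28 on ERT2-Cre control arrays. For Acaca it was 0.18 against 0.11.

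**Figure D3:**
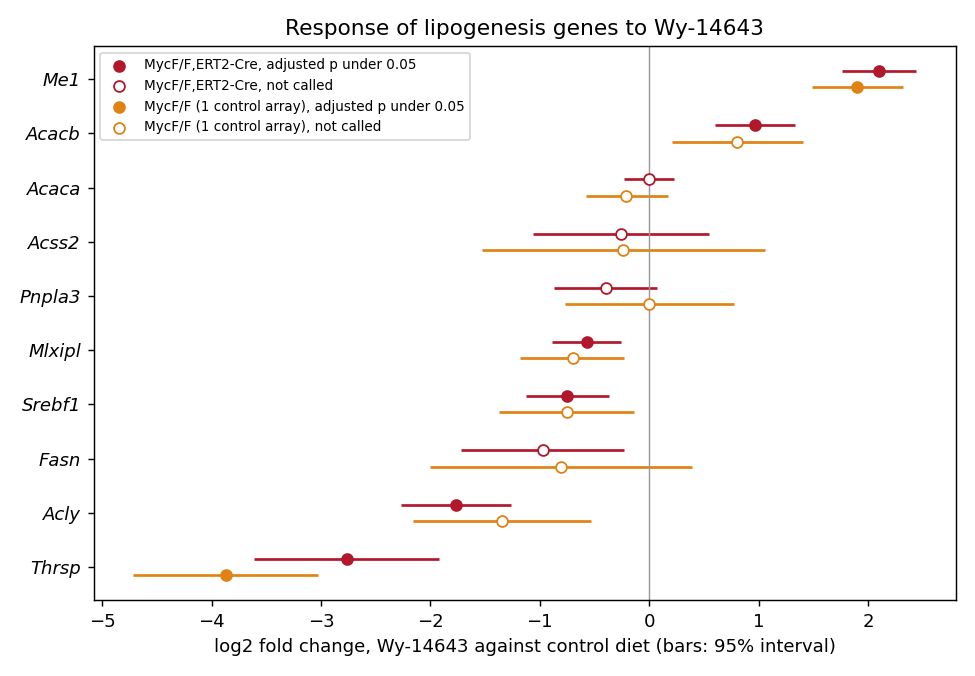
Log2 fold change of each gene on Wy-14643 against control diet with its 95% interval, in MycF/F,ERT2-Cre livers (red) and MycF/F livers (orange, 1 control array); filled points passed an adjusted p of 0.05. Estimates range from -2.76 (Thrsp) to 2.10 (Me1) in ERT2-Cre livers and from -3.87 to 1.90 in MycF/F livers.

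Between genotypes, 0 of the 10 genes was called on Wy-14643 by limma (1 at an unadjusted p under 0.05), where 0.0676% of 25144 genes tested were (8.46% at an unadjusted p under 0.05). That gene was Acaca, which read -0.10, -0.43 and -0.40 in MycF/F and 0.12, 0.20, -0.16 and 0.22 in ERT2-Cre livers (0.41, SE 0.11, adjusted p = 0.226). The ranges overlapped at 1 MycF/F array, and the other 2 Acaca probes gave 0.04 (adjusted p = 0.988) and 0.17 (adjusted p = 0.875). Acacb differed by 0.31 (SE 0.18, adjusted p = 0.752, n = 4 and 3) and Me1 by -0.27 (SE 0.14, adjusted p = 0.736, n = 2 and 2), neither past the threshold. With outlier spots kept Me1 was at -0.43 (SE 0.23, adjusted p = 0.755). For Thrsp the 95% interval of the genotype difference on Wy-14643 was -0.71 to 0.49, and -0.75 to 1.23 around 0.24 with its outlier spot kept, so no direction can be given. For Fasn it was -1.03 to 0.76, and -0.76 to 0.61 with outlier spots kept.

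On control diet, against the lone MycF/F array, 0 of the 10 was called by limma (2 at an unadjusted p under 0.05, Me1 at -0.47 and Thrsp at -1.22, adjusted p = 1 for both), and 0% of all 24889 genes were (1.76% at an unadjusted p under 0.05). The Thrsp value compares 1 array with 1 array. When outlier spots were kept, Thrsp was at -0.14 (SE 0.67, 95% interval -1.59 to 1.32, n = 4 and 1) and Me1 at -0.12 (SE 0.33). The test of the difference between the drug responses of the genotypes called 0 of 10 (0 at an unadjusted p under 0.05) and 0% of 24868 genes, with 541 of all genes at an unadjusted p under 0.05. For Thrsp that difference was 1.11 (SE 0.52, 95% interval -0.08 to 2.30) and for Acly -0.42 (SE 0.43, -1.38 to 0.54). With outlier spots kept it was 0.38 (SE 0.81, -1.38 to 2.14) for Thrsp and -0.13 (SE 0.57, -1.38 to 1.13) for Acly. With slide as a block and outlier spots left out, the Thrsp difference was 1.02, resting on 1 control array of each genotype. The Thrsp result thus depends on the fit, and no direction can be given for either gene.

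Several members varied together across arrays, and the diet and slide that arrays share enter these values. As a description, Pearson's r was 0.97 for Fasn with Acly (8 arrays), 0.98 for Acly with Thrsp (6 arrays) and 0.90 for Acly with Srebf1 (10 arrays), but 0.67 for Srebf1 with Mlxipl (11 arrays). Acacb went with Me1 at 0.89 (7 arrays) and against Srebf1 at -0.92 (12 arrays), and Acaca with no other member beyond 0.38 in the positive direction. Spread within a diet also differed among members. In ERT2-Cre livers the SD on control diet and on Wy-14643 was 0.76 and 0.21 for Fasn, 0.59 and 0.19 for Acly, 0.80 and 0.35 for Acss2 and 0.42 and 0.20 for Srebf1, while for Acaca it was 0.11 and 0.17. ERT2-Cre control replicate 1 was the highest of its group for Fasn, Acly, Acss2, Srebf1 and Pnpla3 and the lowest for Acacb.

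Among the members measured on at least 11 arrays, the genes with the most similar pattern were as follows. Srebf1 was most like Faah (r = 0.970), Abcc6 and Echdc3 (both 0.967) over 12 arrays. Acacb was most like Usp3 (0.969), Fbxo30 (0.957) and Lmbrd1 (0.953), and Mlxipl like Nr1d2 (0.973), Ccl24 (0.965) and Egfr (0.963) over 11 arrays. Pnpla3 was most like Psd (0.947), Defa21 (0.934) and Top3a (0.900), and Acaca like Rp9 (0.916), Sppl3 (0.907) and Cnot2 (0.871).

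The steps before and after fatty acid synthesis did not all follow the 10 genes. The shares to read the list counts against are those over all genes in ERT2-Cre livers, 8.95% higher and 7.44% lower. Of 10 genes tested for acetyl-CoA and NADPH supply, 4 fell and 1 rose in ERT2-Cre livers (median -0.38). Pklr, the liver pyruvate kinase and a ChREBP target, fell by 2.74 (SE 0.21, limma adjusted p = 2.97e-06) and the glucose transporter gene Slc2a2 by 0.80, and G6pdx of the pentose phosphate pathway by 0.53, whereas Taldo1 rose by 0.32. Of 12 desaturases and elongases, 5 rose and 1 fell (median 0.17). Elovl3 rose by 2.85 (n = 4 and 2), Elovl5 by 1.42 (n = 3 and 1) and Hsd17b12 by 1.21 (n = 1 and 1), while Elovl6, which extends palmitate, fell by 1.46 (n = 3 and 1). A diet with 1 array left is assumed to vary like the rest. Elovl5 (1.06), Hsd17b12 (1.39) and Elovl6 (-2.36) were also called when outlier spots were kept (n = 4 and 4).

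Of 11 genes of triglyceride assembly 7 rose and 2 fell (median 0.86). Mogat1, a monoacylglycerol acyltransferase, rose by 2.32 (SE 0.12), Agpat2 by 1.55 (n = 3 and 2) and Acsl5, which activates fatty acids, by 1.5 (n = 2 and 2), while the phosphatidate phosphatase gene Lpin1 fell by 2.59 (SE 0.38, n = 4 and 3). Among 16 genes regulating SREBP, LXR and ChREBP 3 rose and 1 fell (median 0.04), with Insig1, which retains SREBP in the endoplasmic reticulum, at 0.64 (n = 2 and 2), the coactivator gene Ppargc1b at 0.63, Usf2 at 0.39 and Rxra at -0.38. Insig1 (0.27, limma adjusted p = 0.467) and Usf2 (0.03, adjusted p = 0.958) were not called when outlier spots were kept. Of 10 genes of malonyl-CoA turnover and carboxylase control 2 rose and 2 fell (median -0.09). Mlycd, which degrades malonyl-CoA, rose by 0.94 (SE 0.14, n = 3 and 3) and Ppp2ca by 0.59, and the AMP kinase subunit gene Prkab1 fell by 0.66 and Brca1 by 0.51.

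In the smaller lists, 1 of 7 insulin signalling genes rose (Akt2, 0.48) and 1 fell (Akt1, -0.55). Of 8 genes listed as LXR targets outside lipogenesis 1 rose (Lpcat3, 1.97) and 1 fell (Nr1h4, -0.65). Whether Nr1h4 is a target of LXR was not checked. A count of 1 in lists of this size is close to the share over all genes. Of 17 PPARA target genes 16 rose (median 2.64), among them Cyp4a14 (4.65), Cyp4a10 (4.45), Acot1 (4.17) and Ehhadh (3.60). Without the PPARA targets, 20 of 74 genes on these lists were called higher and 12 lower in ERT2-Cre livers (median -0.03), 15 and 8 of 74 in MycF/F livers (3.36% and 3.23% of all genes), and 0 of 76 differed between genotypes on Wy-14643. With median centring 12 and 2 of 74 passed in ERT2-Cre livers, where 581 and 252 of all genes did.

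**Figure D4:**
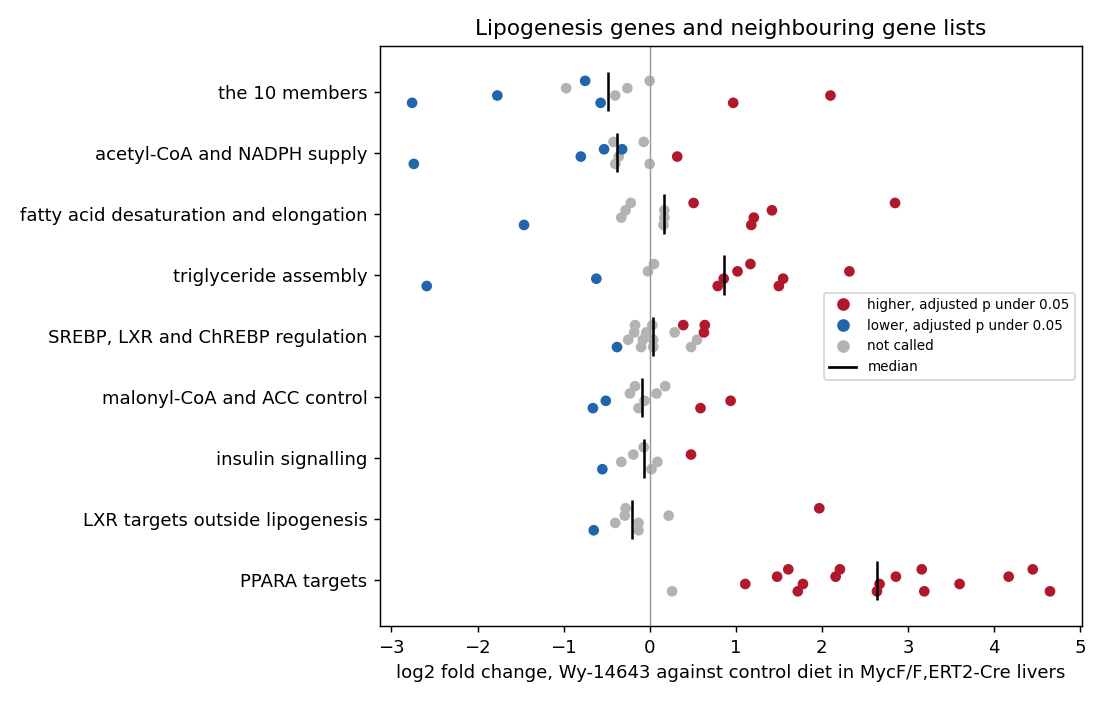
Log2 fold change on Wy-14643 against control diet in ERT2-Cre livers for the 10 lipogenesis genes and the genes of 8 further lists, 1 point per gene, coloured by call, with the list median as a bar. The median is -0.49 for the 10 genes, 0.86 for triglyceride assembly and 2.64 for PPARA targets.

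Markers of other liver cells also moved with the diet. In ERT2-Cre livers 4 of 6 Kupffer cell markers fell (median -0.72, array means of the list -0.81 to 0.92), as did 2 of 3 erythroid, 2 of 4 lymphocyte, 2 of 5 stellate and 1 of 5 endothelial markers, and 2 of 4 measured hepatocyte markers (median -0.93). Of 4 cholangiocyte markers 1 rose. None of 4 adipocyte and 4 pancreatic acinar markers was called by limma. In whole liver, fewer cells of a type and less RNA per cell cannot be told apart, and the part of cell composition in the values above was not tested.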

How the data were processed

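Sample RNA (Cy5) and pooled reference RNA (Cy3) were read on 12 arrays of 4 groups. The deposited spot intensity values are median signals and median local backgrounds, written by version 11.0.1.1 of Agilent Feature Extraction according to the headers. The deposited log10 ratio of Cy5 to Cy3 was used as an alternative.

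With R 4.3.3 and limma 3.58.1, signals were corrected by normexp (offset 50) and loess-normalized within arrays, giving log2 ratios. Outlier spots were left out and spots of a probe averaged. Probes well above background in Cy5 on at least 3 of 12 arrays were kept (for repeated spots, a share of 0.5 of them), 31861 of 41174. Probes were named through a RefSeq table (GRCm38.p6), which matched 16790 of 17440 mRNA accessions, and the brightest kept probe stood for a gene. The build of the array design differs, so probes were not placed on genes.

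A model with 1 mean per group and 8 residual degrees of freedom was fitted to all 12 arrays, with two-sided tests adjusted by Benjamini-Hochberg over all genes and calls at an adjusted p under 0.05. In fits with a block each comparison was a coefficient of its own, fitted to the values that a gene had. The fit was tested on simulated data with independent noise on each array and no slide effect. That test does not show how the fit behaves where arrays of a slide vary together. Alternatives covered background correction, normalization, channel, outlier spots, filters, probes, samples, slide, replicate number and single arrays.

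The 10 genes and all lists were chosen with earlier results of these data known. All 10 were named, with up to 4 called genes per list by size of change and the 3 genes most correlated with each member measured on at least 11 arrays.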

Additional observations from a re-analysis of the deposited data

How the results depend on the processing

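The number of lipogenesis genes called in ERT2-Cre livers was 6 as reported, 2 with median centring in place of loess and 3 with Cy5 alone, and 5 to 7 when single arrays were left out. Over all genes the calls in ERT2-Cre livers were 4118 as reported, 833 with median centring, 1303 with Cy5 alone and 3112 to 4084 when single arrays were left out. In MycF/F livers they were 1642 as reported, 186 with median centring and 259 with Cy5 alone. The number of lipogenesis genes called in MycF/F livers was 2 as reported, 0 with Cy5 alone, 6 with only the groups compared, 4 with slide as a block and 5 without slide 1. Calls over all genes there were 1730 with only the groups compared, 1756 with slide as a block and 2832 without slide 1. For the other pathway genes, 32 were called in ERT2-Cre livers as reported, 14 with median centring and 13 with Cy5 alone. In MycF/F livers 23 were called as reported, 11 with the deposited log ratio, 6 with median centring, 4 with Cy5 alone, 4 (4 higher, 0 lower) with the spread scaled to be equal on all arrays, and 14 to 17 when single arrays were left out. Calls over all genes in MycF/F livers fell as well, to 1053 with the deposited log ratio and 356 (174 higher, 182 lower) with the scaling. They were 1101 to 1322 when single arrays were left out. The scaling, and outlier spots kept together with slide as a block, were chosen after seeing the data. Aquantile leaves log ratios as they are by construction, so it tests nothing here.

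Acss2 turned sign in ERT2-Cre livers with slide as a block (0.40) and without slide 1 (0.35). With single arrays left out it ran from -0.48 to 0.10, the latter without ERT2-Cre control replicate 1. The cause of these changes was not tested. Fasn, Acacb, Acly, Me1, Srebf1, Mlxipl, Thrsp and Pnpla3 kept their direction in ERT2-Cre livers under each alternative fitted with a test. Fasn ran from -1.29 to -0.45, Acacb from 0.73 to 1.08, Acly from -2.24 to -1.21, Me1 from 1.65 to 2.61 and Thrsp from -3.50 to -2.0. Within slide 1 alone, which was not tested, Pnpla3 went the other way (0.25). Whether replicate numbers pair the samples was not settled. Same-numbered arrays had correlated deviations over 0.1 in 6 of 10 pairs (-0.074 to 0.416), and 4 of 11 arrays correlated best with their own number. Replicate 1 of every group but MycF/F on control diet lay on slide 1, so number and slide cannot be told apart there. With the replicate block, 8 lipogenesis genes were called in ERT2-Cre livers and 3 in MycF/F livers, while calls over all genes were 4481 and 1721. Fasn was then at -1.24 in ERT2-Cre livers (limma adjusted p = 0.00389), and Acss2 turned to 0.10 in ERT2-Cre and 1.07 in MycF/F livers. The lone MycF/F control array could not be left out. Missing outlier spots left Thrsp with 1 control array, and no value within slide 1 for Acss2, Me1 or Thrsp.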
